A study of Mus musculus with 6 samples.

Results

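The TNF superfamily and its route to NF-kappaB were examined in LT-HSCs, long-term stem cells of mouse bone marrow that renew the blood. Members were all genes whose single symbol in the array's annotation names a TNF superfamily ligand or receptor, a Traf adaptor, Birc2 or Birc3, a Ripk kinase, an NF-kappaB subunit, an IkappaB protein, an IkappaB kinase subunit or Tnfaip3. This gave 58 of the 18193 genes on the array, covered by 107 probe sets, and each gene was read from its probe set with the highest mean over the 6 arrays. They comprised 12 ligands, 22 receptors, 9 adaptors and associated enzymes, 3 kinase complex genes, 4 NF-kappaB subunits, and 7 inhibitors and feedback genes. Tnfsf13os, an RNA from the strand opposite Tnfsf13, was also a member. Counted as kinase complex genes were Ikbkb, Ikbkg and the related kinase gene Ikbke. Nfkb1, Traf3, Ripk1, Ripk2, Tnfsf12, Tnfsf13, Tnfsf15 and Tnfsf18 are not analysed here.

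Cells were sorted as Lin- Sca1+ CD150+ CD48- from marrow of mice aged 8 weeks, on a mixed background. The double knockout (dKO) mice carried MxCre with c-myc f2 and N-myc f2, floxed alleles of Myc and Mycn, while control mice carried the floxed alleles without Cre; the label of control replicate 2 spells the second allele M-Myc f2. The Cre gene of MxCre stands under an interferon-responsive promoter. Injected pI-pC, which imitates viral RNA, induces it in many cell types and not in stem cells alone. Both groups received pI-pC on 2 consecutive days and were killed 3 days after the last dose, so no array shows cells without this stimulus. Each group had 3 arrays, each from its own pool of 3 dKO or 2 control mice. The comparison addresses loss of both Myc genes together with the presence of MxCre. Cre itself, gene loss in other cell types and the number of mice per pool cannot be told apart from gene loss in these cells. Values are log2 RMA expression values.

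TNF superfamily ligands are mostly membrane proteins of immune cells that bind trimeric receptors on the same or neighbouring cells. Receptors recruit Traf adaptors, cIAP ubiquitin ligases and Ripk kinases, and so activate the IkappaB kinase complex, which marks IkappaB inhibitors for destruction and frees NF-kappaB dimers to enter the nucleus. NF-kappaB then induces its own inhibitors, among them the IkappaB genes and Tnfaip3, which closes a negative feedback loop. In blood stem cells, TNF and NF-kappaB are known as regulators of survival and of the response to inflammation.

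Array medians lay between 5.90 and 5.97, and the 3 negative control probe sets, for a bacterial gene, read 2.13 to 3.92. Both deleted genes were lower in dKO arrays, Myc by a log2 change of -2.93 ± 0.20 (SE, limma adjusted p = 0.00137) and the strongest of 3 Mycn probe sets by -7.35 ± 0.18. The brightest Mycn probe set differed by -1.61 ± 0.22 (SE, limma adjusted p = 0.00938) and the third by -0.08 (adjusted p = 0.858). Of 8 LT-HSC marker genes, 4 fell (Tek, Hlf, Hoxb5 and Kit) and 0 rose, and their summed level lay at 13.08 to 13.13 over the control arrays and lower, at 12.23 to 12.65, over the dKO arrays. Slamf1, which encodes CD150, differed by 0.08 and Mecom by -0.04. The Cd48 transcript, whose protein the sort selected against, rose by 1.16 ± 0.21 (SE, adjusted p = 0.0214). The Gapdh 3' probe set exceeded the 5' probe set by 2.12 to 2.36 in control and by 2.39 to 2.47 in dKO arrays, which bears on RNA quality, and its part in the results was not tested.

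Of the 58 members, 7 rose in dKO cells, 2 fell and 49 did not pass a limma adjusted p of 0.05. The risers were the ligands Tnfsf14, Tnfsf11 and Tnf, the receptors Tnfrsf18 and Tnfrsf13b, and the feedback genes Nfkbiz and Tnfaip3, and the fallers were the decoy receptor Tnfrsf22 and the kinase gene Ikbkb. The risers were 12.1% of members and the fallers 3.45%, against 4.49% and 3.56% of all 18193 genes (8.05% of genes called in either direction). Every dKO array lay above every control array at 17 members and below at 5, or 29.3% and 8.62%, where 15.8% and 14.2% of all genes did so. The median log2 difference was 0.17 over the members and 0.01 over all genes. In bulk samples such as these, fewer cells of a type and less RNA per cell cannot be told apart.

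**Figure D1:**
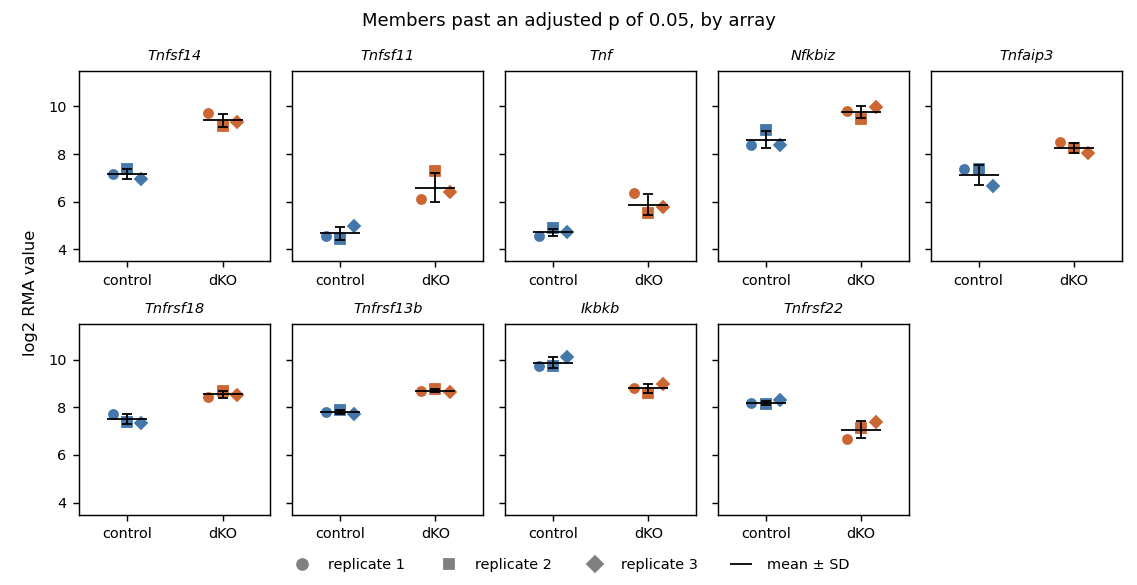
Log2 RMA values (y axis) of the 9 members past a limma adjusted p of 0.05, for 3 control and 3 dKO arrays each; the bar is the mean with its SD. The groups do not overlap at any of the 9, and Tnfsf14 shows the largest separation, from control values up to 7.37 to dKO values of at least 9.19.

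Among 12 ligands, 3 rose and 0 fell (25.0% and 0%, against 4.49% and 3.56% of all genes), and 11 had a difference above 0, as did 9230 of all 18193 genes. Their median was 0.57. Tnfsf14, the ligand LIGHT, which binds the receptors encoded by Tnfrsf14 and Ltbr, changed most of all members. Its brightest probe set read 7.17, 7.37 and 6.94 in control replicates 1 to 3, and 9.72, 9.19 and 9.36 in dKO replicates 1 to 3. All dKO values were thus well above all control values, with a rise of 2.26 ± 0.19 (SE, log2), or 4.80-fold (adjusted p = 0.00247). Its second probe set rose too, by 1.34 ± 0.16 (adjusted p = 0.00640), and the call held with any 1 array left out, at an adjusted p of up to 0.0137.

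Tnfsf11 encodes RANKL, the ligand that drives osteoclast formation. It read 4.58, 4.46 and 4.98 in control arrays and 6.10, 7.27 and 6.42 in dKO arrays. The dKO arrays were all higher, replicate 2 most, and the rise was 1.92 ± 0.31 (SE, log2), or 3.80-fold (adjusted p = 0.0152). Control values lay under every array median, and a second Tnfsf11 probe set, inside the negative control range on all 6 arrays, differed by 0.02 (adjusted p = 0.942). Without control replicate 1 or 2 the adjusted p was 0.0507 or 0.0567.

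Tnf, the founding cytokine of the family, read 4.58, 4.88 and 4.72 in control arrays and 6.37, 5.51 and 5.77 in dKO arrays. Each dKO value exceeded each control value, and replicate 1 was the highest. The rise was 1.16 ± 0.23 (SE, log2), or 2.23-fold, at an adjusted p of 0.0304. Control values were dim here too, and only leaving out dKO replicate 2 kept the call; leaving out another array gave adjusted p values as high as 0.0890 (without control replicate 1).

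The ligand Tnfsf10, or TRAIL, which triggers apoptosis through death receptors, did not pass by its brightest probe set. That probe set read 8.80, 8.28 and 8.22 in control and 9.08, 9.25 and 8.93 in dKO arrays, so the groups did not overlap, and differed by 0.66 ± 0.19 (SE, adjusted p = 0.0993). Its other probe sets differed by 0.82 (adjusted p = 0.0558) and 0.65 (adjusted p = 0.0736). Averaged over the 3 probe sets, the Tnfsf10 difference was 0.71 and passed (adjusted p = 0.0249). Lta, which encodes lymphotoxin alpha, differed by 0.70 with no overlap (adjusted p = 0.147). The death ligand gene Fasl was in the negative control range in part of each group, at 3.46, 4.08 and 2.86 against 5.28, 4.68 and 2.86, and its difference of 0.81 had a 95% interval of -0.64 to 2.25. The remaining 6 ligands, Cd70, Ltb, Tnfsf4, Tnfsf8, Tnfsf9 and Tnfsf13b, differed by -0.20 to 0.47, and none passed.

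Immune cells that the sort should leave out are known sources of several of these ligands, so their markers were read from the same arrays. Of 10 T and NK cell genes, Klrk1 rose, Cd247 fell, and 8 had both group means under the lowest array median, Cd3d, Cd3e and Cd3g among them. Their summed level, the log2 of the sum of linear values, ran from 10.88 to 11.00 over the control arrays and from 10.36 to 10.48 over the dKO arrays. Cd247 carries this sum, with a mean of 10.71 in control and 9.94 in dKO arrays, whereas 8 of the 10 genes had a difference above 0 (median 0.20), with Klrk1 at 2.08 and Klrd1 at 0.91 (adjusted p = 0.378). B cell genes showed 0 of 6 changes, where 8.05% of all genes were called, with summed levels of 8.06 to 8.29 and 8.28 to 8.75. All 6 had a difference above 0 (median 0.25), the largest at Cd22 (0.85, adjusted p = 0.0532).

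Of 8 monocyte, macrophage and dendritic genes, Itgax rose and none fell, with sums of 10.77 to 11.10 against 10.76 to 11.00 (control, then dKO). Mast cell and basophil genes had 2 of 5 higher, Fcer1a and Gata2, and all 5 had a difference above 0. Their sums, 10.74 to 10.96 against 11.51 to 11.60, are carried by Gata2, whose mean was 10.75 and 11.38. Megakaryocyte and platelet genes had 3 of 7 higher, Ppbp (5.67), Itga2b (1.16) and Pf4 (1.11), and 1 lower, Vwf (-1.04). Their sums were 11.62 to 11.84 against 12.79 to 13.47. Ppbp changed most of them, from a mean of 5.81 in control to 11.49 in dKO arrays. Granulocyte genes had 0 of 7 changes and sums of 9.52 to 11.29 against 8.25 to 10.08, and all 7 had a difference under 0 (median -0.60). Erythroid genes had 1 of 4 lower, and endothelial and stromal genes 0 of 7 changes. Endothelial and stromal sums were 8.68 to 9.03 against 9.42 to 11.21, and the higher dKO sums come from Col1a1 (2.91, adjusted p = 0.0603), since 5 of the 7 genes had a difference under 0 (median -0.08). The part of any of these markers in the ligand results was not tested.

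Of 22 receptors, 2 rose, 1 fell and 19 did not pass, with a median difference of 0.18. The shares, 9.09% and 4.55%, compare with 4.49% and 3.56% of all genes. Tnfrsf18 encodes GITR, a costimulatory receptor best known from regulatory T cells. It read 7.73, 7.37 and 7.36 in control arrays and 8.43, 8.68 and 8.50 in dKO arrays. The dKO values were all higher and close together, a rise of 1.05 ± 0.16 (SE, log2), or 2.07-fold (adjusted p = 0.0129), which held with any 1 array left out at up to 0.0499.

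Tnfrsf13b encodes TACI, a receptor for the B cell survival factors that Tnfsf13 and Tnfsf13b encode. Its control arrays, at 7.81, 7.88 and 7.73, and its dKO arrays, at 8.67, 8.76 and 8.64, were the tightest groups among the called members. The rise was 0.88 ± 0.13 (SE, log2), or 1.84-fold (adjusted p = 0.0106), and up to 0.0420 with 1 array left out. The other receptors for these factors did not pass: Tnfrsf13c differed by 0.33 (adjusted p = 0.457) and Tnfrsf17 by 0.02, and the ligand gene Tnfsf13b by 0.11.

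Tnfrsf22 encodes a mouse decoy receptor for TRAIL that lacks a death domain. It read 8.17, 8.13 and 8.28 in control arrays and 6.69, 7.12 and 7.37 in dKO arrays, all of the latter lower. It fell by 1.13 ± 0.19 (SE, log2), a 2.19-fold decrease (adjusted p = 0.0187). Its other 2 probe sets, dimmer, differed by -1.19 (adjusted p = 0.0850) and -0.45 (adjusted p = 0.248). The call was lost without any of the control replicates or without dKO replicate 2, at adjusted p values up to 0.0616. Tnfrsf22 has a near-identical neighbour in Tnfrsf23, so signal may be shared between them; Tnfrsf23 itself lay near the negative controls and differed by -0.35 (adjusted p = 0.346).

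The death receptor genes Tnfrsf1a, Tnfrsf10b and Fas did not pass. Tnfrsf1a, the main TNF receptor, read 8.40, 8.40 and 8.62 in control and 8.80, 9.03 and 8.97 in dKO arrays, higher in all dKO arrays by 0.46 ± 0.14 (SE, adjusted p = 0.106). The mouse TRAIL death receptor gene Tnfrsf10b spread widely within dKO arrays, at 7.58, 7.11 and 5.46, and its difference of 0.93 had a 95% interval of -0.32 to 2.18 (adjusted p = 0.377). Fas, at 4.40, 4.28 and 3.61 against 5.30, 4.54 and 3.64, overlapped between groups (0.40, 95% interval -0.59 to 1.38).

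Tnfrsf1b, the TNF receptor without a death domain, differed by -0.04, with a 95% interval of -0.42 to 0.33. Tnfrsf9, an activation-induced costimulatory receptor, was higher in all dKO arrays by 0.90 (adjusted p = 0.160), as was Tnfrsf12a, the receptor for TWEAK, by 0.43 (adjusted p = 0.210). The other Tnfrsf9 probe sets differed by 1.18 (adjusted p = 0.0912) and 0.03 (adjusted p = 0.920). Tnfrsf14, a receptor for LIGHT, was lower in all dKO arrays by a difference of -0.36 (adjusted p = 0.330). The other receptors, among them Cd27, Cd40, Tnfrsf8 and Tnfrsf21, differed by -0.08 to 0.57 and did not pass. Whether Tnfrsf14 and its ligand gene Tnfsf14 differ in response was not tested.

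**Figure D2:**
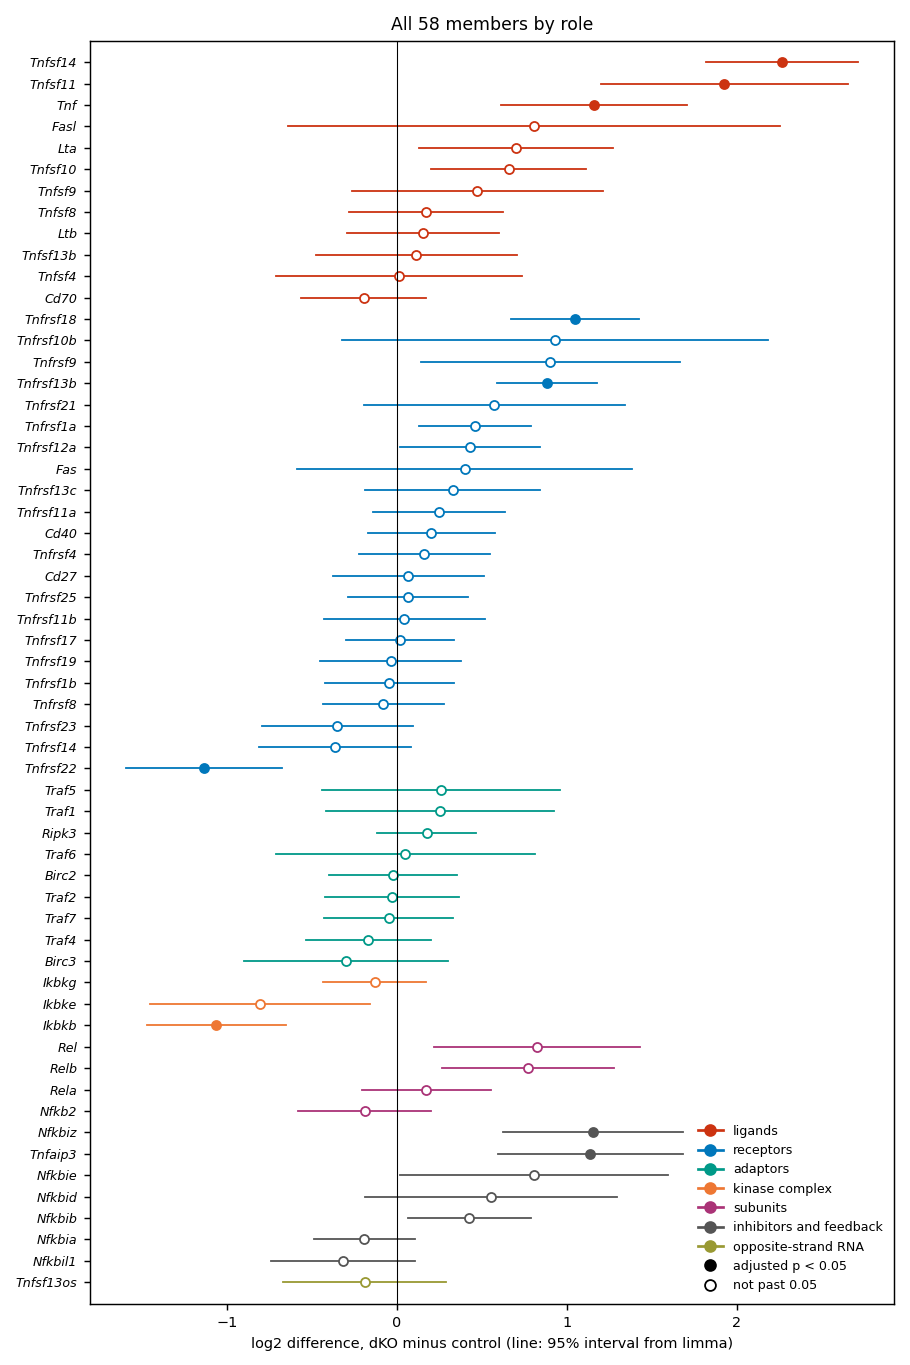
Log2 difference, dKO minus control (x axis), with limma's 95% interval for all 58 members, coloured and grouped by role; filled points passed an adjusted p of 0.05. Ligands lie mostly to the right, from -0.20 to 2.26, and adaptors lie near 0, from -0.30 to 0.26. The 3 genes coloured as kinase complex, Ikbkb, Ikbkg and the related Ikbke, lie at -1.06, -0.13 and -0.80. The interval of Ikbkg spans 0, and only Ikbkb passed.

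Between receptor and kinase, the 9 adaptors and associated enzymes showed no call in either direction, where 8.05% of all genes were called. At that share, few calls would be expected among 9 genes. Their differences ran from -0.30 for Birc3 to 0.26 for Traf5, with a median of -0.02. Birc2 and Birc3, which encode the cIAP ubiquitin ligases, differed by -0.02 (95% interval -0.40 to 0.35) and by -0.30 (-0.90 to 0.30). Birc3 is itself a widely used NF-kappaB target, and read 7.78, 8.13 and 8.24 in control and 8.29, 7.54 and 7.43 in dKO arrays, which overlapped. Traf1, another such target, differed by 0.25 (95% interval -0.42 to 0.92) and Traf2, the adaptor of most receptors, by -0.03 (-0.42 to 0.37). The other Traf1 probe set differed by 0.55, with all dKO arrays above the controls (adjusted p = 0.270). Ripk3, the kinase that starts necroptosis, was higher in all dKO arrays, though only by 0.18 (adjusted p = 0.485).

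Ikbkb encodes the catalytic subunit IKKbeta. Its brightest probe set read 9.73, 9.74 and 10.13 in control and 8.82, 8.61 and 8.98 in dKO arrays, all of the latter lower. The decrease was 2.09-fold (log2 change -1.06 ± 0.17 SE, adjusted p = 0.0162), and was lost without dKO replicate 1 (adjusted p = 0.0568) or dKO replicate 2 (adjusted p = 0.0562). The 4 other Ikbkb probe sets differed by -0.05 to -0.28 with adjusted p values of at least 0.425, and over all 5 probe sets the mean difference was -0.33 (adjusted p = 0.114). The fall of Ikbkb therefore rests on 1 of 5 probe sets. Ikbkg, the regulatory subunit, differed by -0.13 (95% interval -0.43 to 0.17). Ikbke, a related kinase of the interferon response, read 6.80, 6.42 and 6.73 against 5.56, 6.47 and 5.51, a difference of -0.80 ± 0.27 (SE, adjusted p = 0.143). Ikbke passed only when dKO replicate 2, the array in which it overlapped the controls, was left out (-1.12, adjusted p = 0.0338). Leaving out the array that differs widens the gap by construction, so this is no support for a fall.

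**Figure D3:**
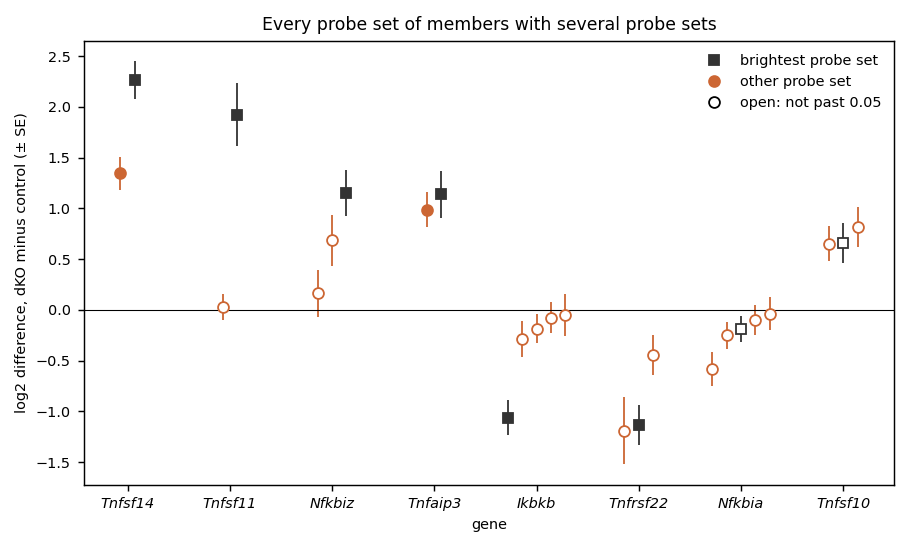
Log2 difference ± SE (y axis) at every probe set of the called members with several probe sets, and of Nfkbia and Tnfsf10; squares are the brightest probe sets and filled symbols passed an adjusted p of 0.05. Both probe sets of Tnfsf14 and of Tnfaip3 passed, whereas only the brightest did at Tnfsf11, Nfkbiz, Ikbkb and Tnfrsf22.

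None of the 4 NF-kappaB subunits passed, where 8.05% of all genes did. Relb, of the alternative pathway, read 5.03, 5.01 and 5.50 in control and 6.03, 6.22 and 5.61 in dKO arrays. All its dKO values were higher, by 0.77 ± 0.22 (SE, log2; adjusted p = 0.0845). Rel, the subunit of lymphoid and myeloid cells, read 5.75, 6.47 and 6.53 against 6.74, 7.34 and 7.14, also without overlap, a difference of 0.82 ± 0.26 (adjusted p = 0.114). Rela, the subunit found in most cells, differed by 0.17 (95% interval -0.21 to 0.55), and Nfkb2 by -0.19 (-0.58 to 0.20). The other Nfkb2 probe set differed by 0.18 (adjusted p = 0.618).

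Of 7 inhibitors and feedback genes, 2 rose, 0 fell and 5 did not pass (4.49% and 3.56% of all genes rose and fell). In 4 of the 7 all dKO arrays were above the controls, and in 2, Nfkbia and Nfkbil1, all were below, where 15.8% and 14.2% of all genes were. Tnfaip3 encodes a ubiquitin-editing enzyme that shuts off NF-kappaB signalling. It read 7.36, 7.36 and 6.65 in control and 8.49, 8.24 and 8.06 in dKO arrays. Every dKO array was higher, by 1.14 ± 0.23 (SE, log2), or 2.20-fold (adjusted p = 0.0319). Its other probe set rose by 0.99 ± 0.17 (adjusted p = 0.0197). At the brighter probe set no call remained when a single array was dropped, at adjusted p values of 0.0532 (without control replicate 3) to 0.102 (without dKO replicate 1).

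Nfkbiz encodes IkappaB-zeta, a nuclear member of the IkappaB family that can also help activate genes. It read 8.40, 9.02 and 8.40 in control and 9.82, 9.47 and 9.98 in dKO arrays, all of the latter higher. The rise was 1.15 ± 0.22 (SE, log2), or 2.23-fold (adjusted p = 0.0278). Its other 2 probe sets differed by 0.69 (adjusted p = 0.168) and 0.16 (adjusted p = 0.754), and over all 3 the mean difference was 0.67 (adjusted p = 0.0905). The call was kept only without control replicate 2 or dKO replicate 2, and reached an adjusted p of 0.0902 without dKO replicate 1.

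Nfkbia, which encodes IkappaB-alpha, the inhibitor most rapidly rebuilt after NF-kappaB activation, did not rise. It read 10.78, 10.86 and 10.87 in control and 10.69, 10.70 and 10.54 in dKO arrays. The dKO values were all slightly lower, with a difference of -0.19 ± 0.13 (SE) and a 95% interval of -0.49 to 0.11. Its 4 other probe sets also differed by amounts under 0, from -0.04 to -0.58, and none passed.

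Nfkbib and Nfkbie, which encode the other cytoplasmic IkappaB proteins, differed by 0.43 (adjusted p = 0.161) and 0.81 (adjusted p = 0.220). Nfkbie controls spread from 7.32 to 8.60, and only control replicate 2 reached the dKO range of 8.59 to 9.20. Nfkbid, a nuclear IkappaB, was higher in all dKO arrays by 0.55 (adjusted p = 0.374), led by replicate 2 at 6.89. Nfkbil1, an IkappaB-like gene of unclear role, differed by -0.32 (adjusted p = 0.374), and the opposite-strand RNA Tnfsf13os by -0.19. Over all members, the 49 probe sets that were not the brightest of their gene held 2 calls, both higher.

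**Figure D4:**
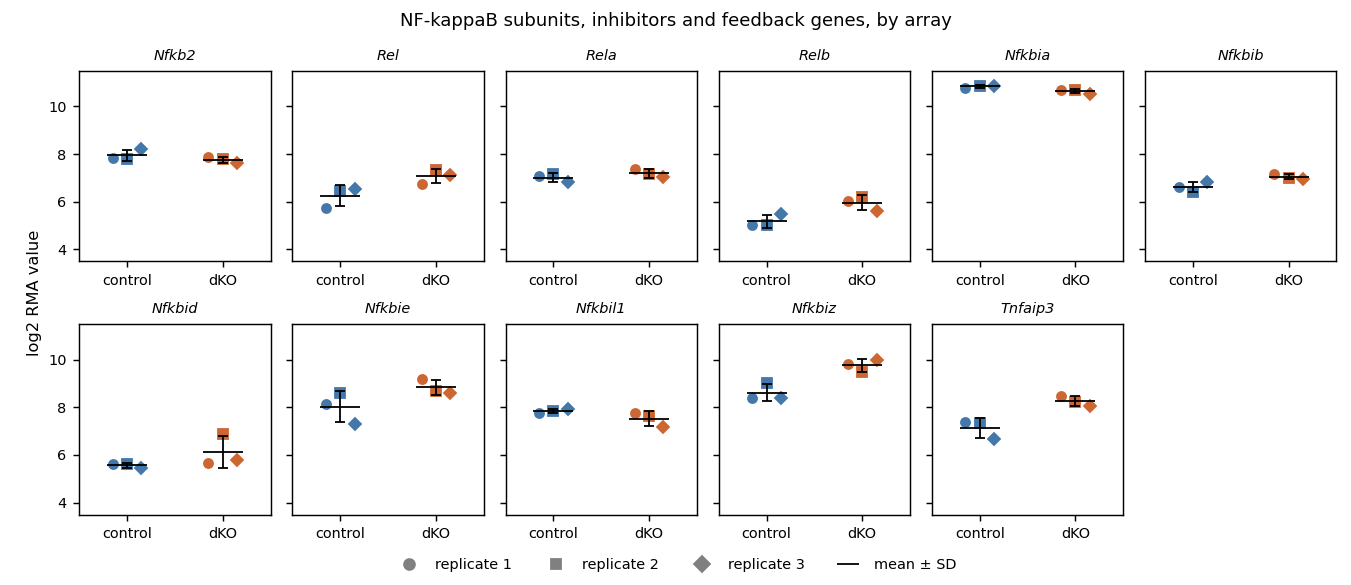
Log2 RMA values (y axis) of the NF-kappaB subunits and of the inhibitors and feedback genes, for 3 control and 3 dKO arrays each; the bar is the mean with its SD. Nfkbiz and Tnfaip3 are higher in all dKO arrays, whereas Nfkbia lies between 10.54 and 10.87 on every array.

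The promoters of 3 known NF-kappaB targets are shown, those of Tnfaip3 and Tnf, which rose, and that of Nfkbia, which did not. They are the 250 bases before the transcription start from RefSeq (GRCm38.p6), with matches to the kappaB decamer consensus and to the E-box CACGTG, the site that Myc with Max prefers, in capitals. Both strands were searched, and the kappaB and E-box matches do not overlap each other.

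Tnfaip3 (chr10:19015411-19015660, minus strand): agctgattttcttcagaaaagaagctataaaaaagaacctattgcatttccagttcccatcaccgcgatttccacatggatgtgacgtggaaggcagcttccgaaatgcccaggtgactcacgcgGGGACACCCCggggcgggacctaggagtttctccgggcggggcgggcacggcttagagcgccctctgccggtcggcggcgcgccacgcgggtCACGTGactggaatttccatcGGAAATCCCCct

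Nfkbia (chr12:55492648-55492897, minus strand): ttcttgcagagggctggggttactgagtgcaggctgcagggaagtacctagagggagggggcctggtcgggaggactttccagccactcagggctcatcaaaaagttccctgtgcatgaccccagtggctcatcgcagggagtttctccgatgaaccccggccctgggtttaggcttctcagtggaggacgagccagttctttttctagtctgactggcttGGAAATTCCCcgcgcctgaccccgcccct

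Tnf (chr17:35202008-35202257, minus strand): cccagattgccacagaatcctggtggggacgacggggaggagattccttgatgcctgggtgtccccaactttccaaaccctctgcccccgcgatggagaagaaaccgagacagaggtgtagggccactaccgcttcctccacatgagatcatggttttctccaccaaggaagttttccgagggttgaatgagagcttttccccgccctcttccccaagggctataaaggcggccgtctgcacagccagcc

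The Tnfaip3 window held 2 kappaB matches, GGAAATCCCC at 2 bases and GGGACACCCC at 115 bases before the start, and an E-box at 27 bases. A second start of Tnfaip3 had neither in its window. The Nfkbia window held 1 kappaB match, GGAAATTCCC, 19 bases before the start, and no E-box, and the Tnf window held neither. A kappaB match occurred in 10 of the 47 member genes with a window (21.3%), and in 8.23% of 27025 genes. Ltb, Nfkb2, Nfkbid, Nfkbie, Rel, Tnfrsf8, Tnfrsf9 and Tnfrsf25 were the others. An E-box occurred in 6 of the 47 (12.8%) and in 6.86% of all genes. Of the 6 risen members with a window, only Tnfaip3 held either. A match is a string of letters and not evidence of binding.

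Many members stand side by side in the genome, and beside a called member its neighbouring member did not pass. This is the usual outcome, since 49 of all 58 members and 16729 of all 18193 genes did not pass. Tnf lies between Lta and Ltb in the RefSeq gene order; it passed, whereas Lta (0.70) and Ltb (0.15, 95% interval -0.29 to 0.60) did not. Tnfsf14 and Cd70 are adjacent, and Cd70 differed by -0.20 (95% interval -0.56 to 0.17) where Tnfsf14 rose by 2.26. Tnfrsf18 and its neighbour Tnfrsf4 differed by 1.05 and 0.16 (95% interval of the latter -0.22 to 0.55). The adjacent Tnfrsf22 and Tnfrsf23 differed in the same direction, by -1.13 and -0.35. These differences between neighbours were not tested.

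Of 56 measured pathway genes outside the rule, such as adaptors of other receptors, ubiquitin enzymes and upstream kinases, 6 rose and 0 fell. These shares, 10.7% and 0%, compare with 4.49% and 3.56% of all genes, and the median was 0.22. Bcl3, a nuclear IkappaB family member, rose most, from 6.06, 6.44 and 5.82 in control to 7.76, 7.88 and 7.47 in dKO arrays, by 1.60 ± 0.20 (SE, log2; adjusted p = 0.00725). Myd88, the adaptor of Toll-like and interleukin-1 receptors, rose by 1.48 ± 0.15 (adjusted p = 0.00383). Both groups of values were separate in each, and both calls held with any 1 array left out.

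Map3k8, a kinase held by the NF-kappaB precursor, rose from a mean of 5.84 ± 0.05 to 6.84 ± 0.29 (SD, n = 3), Bcl10, which links antigen receptors to NF-kappaB, by 0.85 ± 0.17 (SE, log2), and Casp8, the protease activated by death receptors, by 0.76 ± 0.14. Tax1bp1, a partner of the Tnfaip3 enzyme, rose by 0.62 ± 0.13. These 4 calls had adjusted p values of 0.0196 to 0.0374, and none held with every array left out in turn. Tax1bp1 lost its call in all 6 cases, Bcl10 and Casp8 kept theirs in 1 of 6, and Map3k8 in 2 of 6. The highest values were 0.0668 for Map3k8 (without control replicate 2), 0.0934 for Bcl10 and 0.109 for Tax1bp1 (both without dKO replicate 1) and 0.0803 for Casp8 (without dKO replicate 2). Mlkl, which executes necroptosis downstream of Ripk3, differed by 1.49 but varied among controls from 6.31 to 7.88 (adjusted p = 0.0695; chosen after its value was seen).

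Of 38 genes widely described as NF-kappaB targets, none of them a member, 9 rose and 1 fell (23.7% and 2.63%, against 4.49% and 3.56% of all genes; median 0.32). Cd69, an activation antigen, rose by 4.04 ± 0.30 (SE, log2) and Il1b, an inflammatory cytokine, by 3.51 ± 0.43, from 5.47, 5.96 and 6.22 to 10.40, 8.73 and 9.04. Ptgs2, the inducible cyclooxygenase, rose by 2.95 ± 0.53 and the interferon-induced chemokine Cxcl10 by 2.36 ± 0.39. Ccnd1, a G1 cyclin, rose by 1.91, Bcl2l1, which encodes a survival protein of the Bcl2 family, by 1.88, and Gch1, an enzyme of tetrahydrobiopterin synthesis, by 1.62.

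The transcription factor Irf1 (0.74) and the early gene Ier2 (0.61) also rose, and Tnfaip2 fell by 1.22 ± 0.25 (adjusted p = 0.0334). The calls of Cd69, Ccnd1, Bcl2l1, Il1b and Gch1 held with any 1 array left out. Irf1 and Ier2 lost theirs in each such case, at up to 0.0895 and 0.132 (both without dKO replicate 1), and Tnfaip2 without any array but control replicate 3, at up to 0.108 (without dKO replicate 1). Cxcl10 lost its call without control replicate 1 or 3 (up to 0.0596), and Ptgs2 kept its own only without control replicate 3 or dKO replicate 2 (0.0671 at most otherwise). Other classical targets did not pass: Icam1 differed by 0.53 (adjusted p = 0.176), Ccl2 by 0.13 and Vcam1 by 0.31, and Sod2 by -0.71 (adjusted p = 0.0793). Several listed genes also answer to interferon or other signals, and which signal moved them was not tested.

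**Figure D5:**
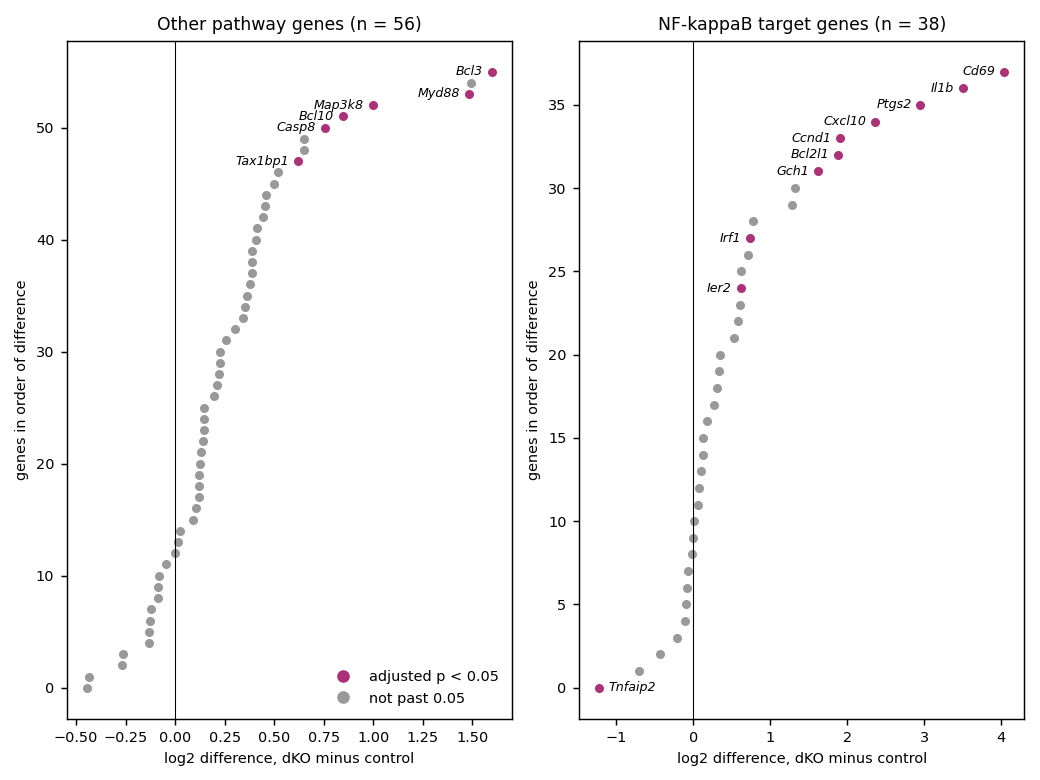
Log2 difference, dKO minus control (x axis), of 56 other pathway genes and 38 NF-kappaB target genes in order of their difference (y axis); coloured and named points passed an adjusted p of 0.05. All 6 pathway genes that passed lie to the right, led by Bcl3 at 1.60, and 9 of the 10 target genes that passed do, led by Cd69 at 4.04.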

How the data were processed

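Per the labels' protocols, RNA from sorted cells was purified with Trizol, amplified over 2 rounds with a NuGEN kit for small amounts and labelled with biotin, and such amplification can alter differences between transcripts. The authors deposited log2 values from RMA, per the submitters' processing notes, whose settings the sources used here do not give. Arrays were normalized to each other, so all changes are relative and total RNA per cell cannot be seen. Levels of different probe sets are compared only in picking a gene's brightest probe set and in the summed marker levels, where bright probe sets weigh most.

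The 45037 non-control probe sets were fitted with limma 3.58.1 (R 4.3.3, lmFit and eBayes, dKO minus control, 4 residual and 3.19 prior degrees of freedom), after a check on simulated data. P-values were adjusted over all of them by Benjamini-Hochberg, with a threshold of 0.05, and adjusted p-values beside genes are from this fit. SE and 95% intervals are limma's, and each SD covers a group's 3 arrays. Symbols came from the platform annotation, and 0 of 58 member symbols changed against RefSeq. Probe sets naming several genes, 3 of them with family members, were not used. The array number limits the precision. Arrays came from different pools of mice, and the spread that the p-values use is that between pools.

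Named were all members past the threshold, the NF-kappaB subunits and inhibitors, death receptors and their ligands, Tnfrsf1b, Birc2, Birc3, Traf1 and Traf2. List genes past the threshold were named too. Others are examples chosen after their values were seen. Members and lists were chosen with earlier results of these data known, so they are no independent support. Same-numbered arrays did not deviate together from their group means (correlations -0.016, 0.002 and 0.013), so no replicate block was used. Alternatives were median centring, quantile normalization, a level filter, a trended robust prior, array weights, the replicate block, averaging a gene's probe sets, and leaving out each array.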

Additional observations from a re-analysis of the deposited data

How the results depend on the processing

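With 3 arrays per group, many calls lie close to the threshold. The 7 higher members stayed 7 under median centring, quantile normalization, a trended robust prior and array weights. They fell to 5 with a level filter, which tests fewer genes and left Tnf and Tnfsf11 untested as too dim. They fell to 4 with the replicate block, which leaves fewer degrees of freedom. With 1 array left out, 3 to 6 members were higher and 1 to 2 lower. Averaging a gene's probe sets left 1 member lower, Tnfrsf22, and kept 6 of the 7 higher, adding Tnfsf10 and losing Nfkbiz. Of the 9 called members, 3 kept their call with any 1 array left out (Tnfsf14, Tnfrsf13b and Tnfrsf18); with the replicate block, Tnfrsf18 reached an adjusted p of 0.0509, Nfkbiz 0.0839 and Tnf 0.0786. Other pathway genes higher numbered 3 with the replicate block, 10 after averaging probe sets and 2 to 4 with 1 array left out; 0 were lower in each alternative run. NF-kappaB target genes higher numbered 5 to 8 with 1 array left out. Those lower numbered 2 after quantile normalization, with the trended robust prior, the level filter or averaged probe sets, 0 with the replicate block and 0 to 1 with 1 array left out. No called gene changed sign in any alternative; of 18 named genes without a call, 4 did (Fas, Tnfrsf1b, Birc2 and Traf2). Dim probe sets limit the rest: 18 of 58 members had both group means under the lowest array median, and RMA can compress their changes.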

Other observations

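Fas, its ligand gene Fasl and Tnfrsf10b varied among the dKO arrays, whereas Tnfrsf1a (8.80, 9.03 and 8.97) and Tnfsf10 (9.08, 9.25 and 8.93) were steady. Replicate 3 was the lowest of the dKO arrays at Fas (3.64 against 5.30 and 4.54), Fasl (2.86 against 5.28 and 4.68) and Tnfrsf10b (5.46 against 7.58 and 7.11). Without that array the log2 differences were 0.82 for Fas, 1.52 for Fasl and 1.56 for Tnfrsf10b, with limma adjusted p values of 0.248, 0.0937 and 0.0519. Leaving out the lowest dKO array raises each difference by construction. The NK cell marker Klrd1 had the same array order as Fasl in the controls (4.15, 4.97 and 3.87). So did Klrk1 (3.81, 4.67 and 3.08), whereas Ncr1, Eomes, Cd247, Cd3d, Cd3e, Cd3g, Cd4 and Cd8a had other orders. Klrd1 was also lowest in dKO replicate 3 (4.05 against 5.86 and 5.83), as were Klrk1, Ncr1, Eomes and Cd3g. Cd247, Cd3d, Cd3e, Cd4 and Cd8a were not. The mast cell gene Cpa3 was lowest in that array too (4.78 against 6.05 and 6.01). The other mast cell and basophil genes were not: Mcpt8, Fcer1a and Ms4a2 were lowest in dKO replicate 1 and Gata2 in dKO replicate 2. The part of such cells in these values was not tested. Replicate 3 of dKO was not low at Tnfsf14 (9.36), Nfkbiz (9.98) or Tnfrsf18 (8.50). It was the highest of all arrays at the stromal gene Col1a1 (11.03 against 8.33 and 8.20). These genes were chosen after their values were seen.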
